A study of Mus musculus with 6 samples.

Results

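Iron in neutrophils is stored, moved and sensed by a small set of gene products, and 10 of their genes are described here across neutrophils of mouse peripheral blood, isolated by flow cytometry. The groups were 3 samples from mice given AVP, an abbreviation the labels do not expand, over 30 days, and 3 negative control samples. The labels name no strain, age, sex, dose or route, they enter the treatment under genotype as well, and nothing in them says that each sample is a different animal, so errors describe how far these samples spread, a spread that may be purely technical. The 10 genes were picked by name (Fth1, Ftl1, Slc40a1, Slc11a1, Slc11a2, Tfrc, Hmox1, Bach1, Ireb2 and Aco1), and all 10 were found among 47561 features. The choice was made with earlier results of the AVP against control comparison in view. Values of these genes in that comparison are therefore given as a description, without a test of their own.

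Cells keep surplus iron inside ferritin, a hollow shell of heavy (Fth1) and light (Ftl1) subunits, of which the heavy one oxidises iron and the light one helps to lay it down. Iron enters with transferrin through the transferrin receptor (Tfrc) and leaves through ferroportin (Slc40a1), while haem oxygenase 1 (Hmox1) frees iron from haem. The iron regulatory proteins, encoded by Aco1 and Ireb2, bind hairpins called iron-responsive elements in messenger RNA when iron is scarce. Binding in the 5′ untranslated region (UTR) blocks translation, as in ferritin and ferroportin mRNA, and binding in the 3′ UTR keeps Tfrc mRNA from decay. Part of this control thus acts on translation, which RNA levels do not show. BACH1 is a haem-sensing repressor of transcription whose known targets include Hmox1, the ferritin genes and Slc40a1. Neutrophils and macrophages also carry a metal transporter of the phagosome membrane, encoded by Slc11a1, that withholds metal from engulfed microbes.

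The iron-responsive elements are shown because they tie at least 4 of the 10 genes to the same sensors. A search of the sense strand of GENCODE M21 mRNAs for a C, 5 bases, the loop CAGTGN and 5 more bases, in which the 5 bases on either side of the loop pair (G-T pairs allowed), found a match in the 5′ UTR of Fth1, Ftl1 and Slc40a1 and 4 matches in the 3′ UTR of Tfrc. Over all protein-coding genes searched, the 5′ UTR held a match in 20 of 19405 (0.103%) and the 3′ UTR in 106 of 19916 (0.532%). The sequences are given 5′ to 3′ as DNA on the mRNA strand, with the loop in capitals, and positions are on GRCm38, the assembly of the mm10 build. The Tfrc element shown is the first of its 4.
Fth1 5′ UTR, chr19:9982732-9982760, plus strand: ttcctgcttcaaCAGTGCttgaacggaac
Ftl1 5′ UTR, chr7:45459779-45459807, minus strand: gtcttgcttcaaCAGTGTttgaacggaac
Slc40a1 5′ UTR, chr1:45925465-45925493, minus strand: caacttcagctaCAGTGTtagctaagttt
Tfrc 3′ UTR, chr16:32631219-32631247, plus strand: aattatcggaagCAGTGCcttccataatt
The Fth1 and Ftl1 elements were identical at 26 of 29 positions, and those of Fth1 and Slc40a1 at 13 of 29. In the other 6 genes this pattern was not in the mRNA searched. Only 1 mRNA per gene was searched, so elements in other isoforms or of another shape would be missed. These matches describe the mRNAs, and binding by the regulatory proteins was not measured.

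Values are printed as deposited by the authors and are taken to be FPKM, fragments scaled to transcript length and library size. The unit was inferred, and comparisons of level between genes rest on it. The libraries held about 14225000 to 16892000 fragments each, estimated from the value that a single fragment gives in short pseudogenes. Of 13 neutrophil markers 12 passed the filter on low values, and their sum was 165725 to 194171 FPKM after AVP and 169960 to 190131 FPKM in controls, most of it S100a8 and S100a9. The sum hides single markers. Retnlg, Il1r2 and Ngp were higher in every AVP library than in every control, Mmp9 was lower, and the other markers overlapped. RNA of other blood cells was present too. The haemoglobin genes held 29.2%, 15.1% and 16.99% of all FPKM in AVP replicates 1 to 3, against 13.6%, 19.0% and 17.6% in control replicates 1 to 3. Basophil and mast cell markers summed to 337 FPKM in AVP replicate 1 and to 0 to 29.3 FPKM in the other libraries, and T and NK cell markers to 158 FPKM in AVP replicate 3 and to 2.01 to 15.5 FPKM elsewhere. B cell markers summed to 1264, 4847 and 3795 FPKM after AVP, against 6049, 7751 and 4916 FPKM in controls, a sum carried mostly by the immunoglobulin gene Igkc (653, 3300 and 2710 FPKM after AVP, against 4563, 6228 and 3355 FPKM in controls). Cd79a overlapped, at 628 FPKM in AVP replicate 2 and at most 466 FPKM in controls. The part of B cell RNA in the genes that were lower after AVP was not tested. In such bulk samples, fewer cells of a type and less RNA per cell cannot be told apart. Genes that cells generally use, such as the haem synthesis gene Alad, were listed at 0 in all 6 libraries, so a value of 0 is not read as absence.

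Ftl1 had the highest mean of the 10 genes over the 6 libraries, 6306 FPKM, followed by Fth1 at 5237 FPKM, and the ranges of these 2 overlapped. Slc40a1 came next at 128 FPKM, apart from Fth1 above it and from Slc11a1 (35.8 FPKM) below it. From Slc11a1 downwards, through Hmox1 (22.7 FPKM), Bach1 (11.7 FPKM), Ireb2 (8.36 FPKM), Slc11a2 (2.37 FPKM), Tfrc (1.79 FPKM) and Aco1 (0.426 FPKM), the range of each gene overlapped that of the next. Of the 10 genes, 8 passed the filter of 1 FPKM in at least 3 libraries, and Slc11a2 and Aco1 did not.

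**Figure D1:**
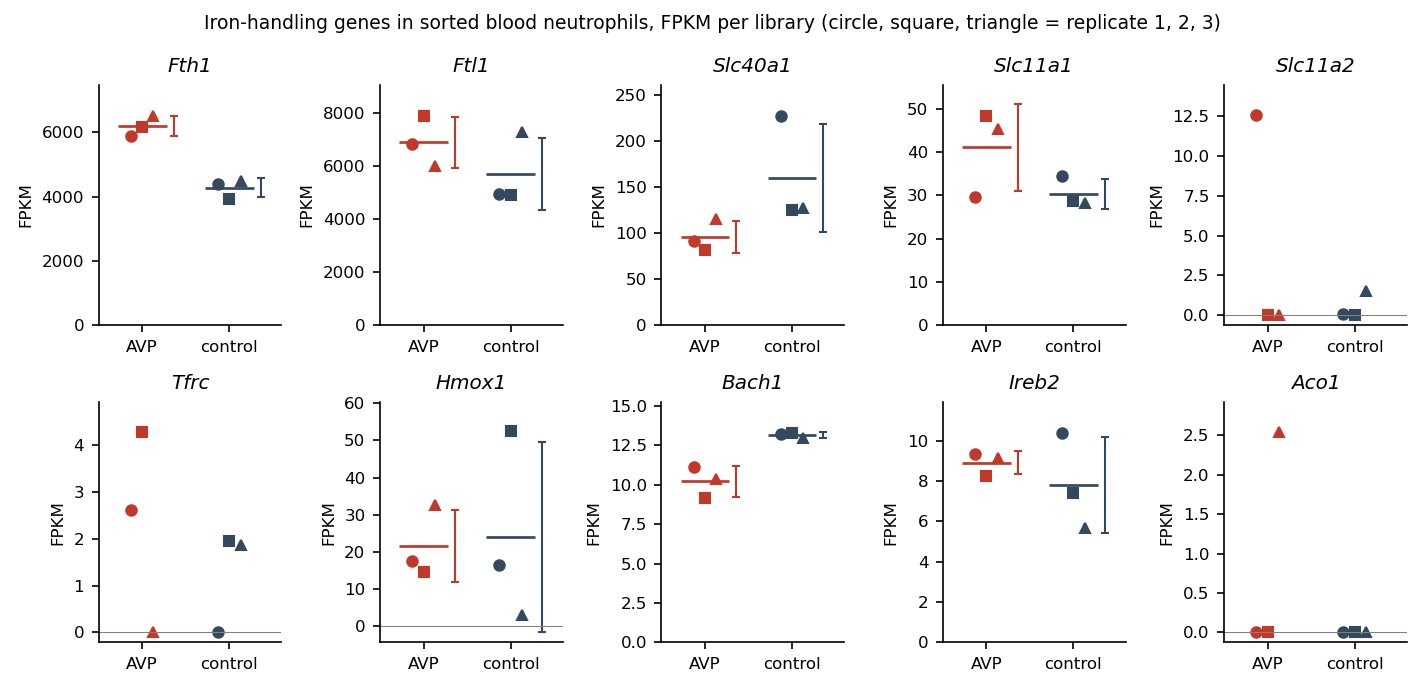
FPKM of the 10 genes in each library, AVP on the left and control on the right of each panel, with its own axis per gene. Symbols are libraries, horizontal lines group means and error bars 1 SD (n = 3 each), and lines and bars are left out where a library was listed at 0. Fth1 was above all controls in all 3 AVP libraries, and Slc40a1 and Bach1 were below them.

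The question the design poses is which transcripts differ in blood neutrophils after AVP. Across all 8523 genes tested with limma on log2(FPKM + 1), none passed an adjusted p of 0.05 in either direction (0 genes, 0.0%, each way). Unadjusted p-values below 0.05 were found for 400 genes (4.69%) that were higher after AVP and for 322 (3.78%) that were lower. No iron-handling gene was therefore called. The groups did not overlap for 3 of the 10 genes on the deposited scale: Fth1 was higher after AVP, and Slc40a1 and Bach1 were lower. Over all genes tested the groups did not overlap in 14.0%, with 6.39% higher and 7.63% lower. Of the 8 tested members, 6 had a fitted fold change above 0 and 2 below, with a median of 0.40 on the log2 scale, beside a median of -0.04 and 47.7% above 0 for all genes tested. Because the members were chosen with this comparison known, nothing is read from these counts.

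Fth1, the heavy subunit of ferritin (gene identifier 14319, chromosome 19 from 9980600 to 9985111), was at 5898, 6184 and 6517 FPKM after AVP, against 4400, 3939 and 4484 FPKM in controls. Each AVP library exceeded every control, by a gap wider than the range within either group. The group means were 6200 ± 310 FPKM after AVP and 4274 ± 293 FPKM in controls (SD, n = 3 each), a ratio of 1.45. The fitted log2 fold change was 0.62 (SE 0.15), with a 95% interval of 0.28 to 0.96. By level it ranked 12 to 14 among all features after AVP and 17 in each control library. With any single library left out, the fold change lay between 0.57 and 0.67.

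Ftl1, the light subunit (gene identifier 14325, chromosome 7 from 45457944 to 45459886), was at 6817, 7894 and 5990 FPKM after AVP, against 4956, 4901 and 7275 FPKM in controls. Control replicate 3 lay inside the AVP range, so the groups overlapped. The fitted log2 fold change was 0.37 (SE 0.20, 95% interval -0.10 to 0.84), and with a library left out it ran from 0.27 without control replicate 1 to 0.55 without control replicate 3. Reads of Ftl1 are hard to place. Its mRNA matched Ftl1-ps1 on chromosome 13 at 99.6% identity over 94.0% of its length, and 3 further copies listed above 1 FPKM, Gm15590, Gm12164 and Ftl1-ps2, at 96.0% to 99.1% over about 57% of it. Ftl1-ps1 was at 454, 534 and 401 FPKM after AVP, against 326, 325 and 502 FPKM in controls. It stood at 6.58% to 6.90% of the Ftl1 value in all 6 libraries, and its order of libraries was the same as that of Ftl1. Gm15590 was at 199, 243 and 174 FPKM after AVP, against 200.4, 169.8 and 232 FPKM in controls. Gm12164 lay between 44.96 and 51.6 FPKM after AVP and between 43.0 and 55.6 FPKM in controls, and Ftl1-ps2 between 2.31 and 4.58 FPKM after AVP and between 2.97 and 4.56 FPKM in controls. For Fth1 no copy of at least 90% identity over 50% of its mRNA was matched by name in the files. Ftmt, the mitochondrial ferritin, and the Fthl17 genes were listed at 0.

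Both subunits together took 1.53%, 1.78% and 1.57% of the total FPKM after AVP, against 1.24%, 1.09% and 1.48% in controls. The 3 AVP shares lay above the 3 control shares, though AVP replicate 1 and control replicate 3 were close. The means were 1.63% ± 0.13 after AVP and 1.27% ± 0.20 in controls (SD, n = 3 each). With haemoglobin, immunoglobulin and mitochondrial genes left out of the total, the shares were 2.21%, 2.17% and 1.98% after AVP, against 1.51%, 1.44% and 1.88% in controls, and the groups again did not overlap. The ratio of Fth1 to Ftl1, which does not depend on how libraries are scaled to each other, was 0.865, 0.783 and 1.09 after AVP, against 0.888, 0.804 and 0.616 in controls. Its groups overlapped, and AVP replicate 3 was the only library of the 6 with more Fth1 than Ftl1. Immature red cells also hold ferritin mRNA. The summed erythroid markers were 242690, 119506 and 135497 FPKM after AVP and 102766, 154956 and 139705 FPKM in controls, with AVP replicate 1 highest. As deposited, Fth1 was lowest of the AVP libraries in AVP replicate 1. After scaling of the libraries it was highest there, at 6612 FPKM, against 5953.5 and 6573 FPKM in AVP replicates 2 and 3. Of the 12 erythroid markers, 9 passed the filter on low values, and Epb42 was at 0 in every library. The part of red cell RNA in the ferritin values was not tested.

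**Figure D2:**
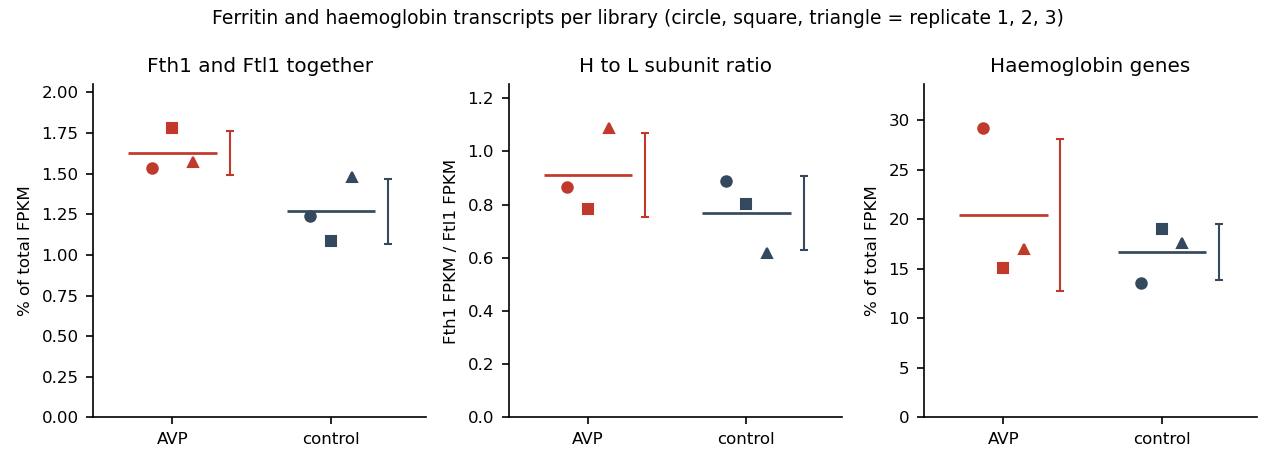
Share of total FPKM taken by Fth1 and Ftl1 (left), ratio of Fth1 to Ftl1 FPKM (middle) and share of total FPKM taken by haemoglobin genes (right) per library. Lines are group means and bars 1 SD (n = 3 each); the ferritin shares were 1.53% to 1.78% after AVP and 1.09% to 1.48% in controls, while the other measures overlapped.

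Slc40a1, the iron exporter ferroportin (gene identifier 53945, chromosome 1 from 45908070 to 45926532), was at 91.1, 81.5 and 115 FPKM after AVP, against 227, 125 and 127 FPKM in controls. Each AVP library lay below each control library, but control replicate 1 stood far above the other 2 controls. Means were 95.9 ± 17.4 FPKM after AVP and 160 ± 58.4 FPKM in controls (SD, n = 3 each), a ratio of 0.601. The fitted log2 fold change was -0.60 (SE 0.32, 95% interval -1.33 to 0.12). Without control replicate 1 it was -0.33, and over the other left-out libraries it reached -0.75. Ferroportin is abundant in macrophages. Summed monocyte and macrophage markers were 874, 1149 and 231 FPKM after AVP, against 546, 908 and 1184 FPKM in controls. Most of this sum was Ctss and Ly6c2, both lowest in AVP replicate 3. Ctss was at 278, 488 and 85.4 FPKM after AVP, against 230, 434 and 461 FPKM in controls. Ly6c2 was at 398, 333 and 87.0 FPKM after AVP, against 122, 131 and 388 FPKM in controls. Of the marker list, C1qa, C1qb, Vcam1 and Cd5l were listed at 0 in all libraries. Others were above 0 in every library, among them Cd68 (15.1 to 99.97 FPKM), Csf1r (8.54 to 34.6 FPKM) and Adgre1 (5.97 to 17.5 FPKM). The part of macrophage RNA in the Slc40a1 values was not tested.

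Slc11a1, the phagosomal metal transporter (gene identifier 18173, chromosome 1 from 74375014 to 74386057), was at 29.6, 48.4 and 45.4 FPKM after AVP, against 34.4, 28.6 and 28.1 FPKM in controls. AVP replicate 1 was within the control range as deposited, and after scaling of the libraries it was at 33.2 FPKM, just above the highest control, 33.1 FPKM. The fitted log2 fold change was 0.48 (SE 0.32, 95% interval -0.27 to 1.22). Slc11a2, the related transporter DMT1, which carries iron across the endosome membrane (gene identifier 18174, chromosome 15 from 100387898 to 100424209), was measured at 12.6 FPKM in AVP replicate 1 and at 0 in AVP replicates 2 and 3, against 0.0719, 0 and 1.53 FPKM in controls. A single AVP library thus carried nearly all of its signal, the same library that held the basophil and mast cell markers and the most haemoglobin RNA. Whether RNA of those cells contributed was not tested.

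Tfrc, the transferrin receptor (gene identifier 22042, chromosome 16 from 32608896 to 32632794), was at 2.61, 4.28 and 0.0154 FPKM after AVP, against 0, 1.96 and 1.87 FPKM in controls. Both groups ran from near 0 upwards and overlapped. The values correspond to about 0 to 341 fragments per library. Its log2 fold change was 0.44 (SE 0.79, 95% interval -1.38 to 2.25), an interval wide in both directions. It was -0.07 without control replicate 1, -0.02 without AVP replicate 2, 0.17 without AVP replicate 1 and 1.1503 without AVP replicate 3.

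Hmox1, the inducible haem oxygenase (gene identifier 15368, chromosome 8 from 75093618 to 75100593), was at 17.4, 14.5 and 32.6 FPKM after AVP, against 16.3, 52.5 and 2.97 FPKM in controls. The controls spread more widely than the AVP libraries and enclosed them. Control replicates 2 and 3 rested on about 1253 and 66.3 fragments, so the spread between them was far beyond counting error, which is all such fragment numbers cover. Its log2 fold change was 0.53 (SE 0.89, 95% interval -1.51 to 2.57). It was 1.44 without control replicate 2 and -0.45 without control replicate 3, so no direction can be given.

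Bach1, the haem-sensing repressor (gene identifier 12013, chromosome 16 from 87698954 to 87733346), was at 11.1, 9.16 and 10.4 FPKM after AVP, against 13.2, 13.3 and 12.96 FPKM in controls. The 3 controls lay close together and all AVP libraries were below them, with means of 10.2 ± 0.99 FPKM after AVP and 13.2 ± 0.17 FPKM in controls (SD, n = 3 each), a ratio of 0.777. After scaling, AVP replicate 1 (12.47 FPKM) came within 0.1 FPKM of control replicate 3 (12.55 FPKM), and the groups still did not overlap. Its log2 fold change was -0.26 (SE 0.43, 95% interval -1.26 to 0.73). It was -0.15 without AVP replicate 2 and -0.38 without AVP replicate 1. The fitted error borrows from genes of a similar level and is wider than the spread of Bach1 itself.

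Of the genes for the iron regulatory proteins, Ireb2, which encodes IRP2, the form removed by the proteasome when iron is plentiful (gene identifier 64602, chromosome 9 from 54862658 to 54912534), was at 9.35, 8.25 and 9.14 FPKM after AVP, against 10.4, 7.39 and 5.67 FPKM in controls. The AVP libraries lay within the control range, and the fitted log2 fold change was 0.28 (SE 0.50, 95% interval -0.88 to 1.43). It was 0.09 without control replicate 3 and 0.47 without control replicate 1. Aco1, which encodes IRP1, the form that doubles as cytosolic aconitase (gene identifier 11428, chromosome 4 from 40143265 to 40199009), was at 0, 0.00969 and 2.55 FPKM after AVP and listed at 0 in all 3 controls. The 2.55 FPKM of AVP replicate 3 correspond to about 165 fragments, while the value of AVP replicate 2 is below that of 1 whole fragment. AVP replicate 3 was also the library with T and NK cell markers, and their part in this value was not tested.

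**Figure D3:**
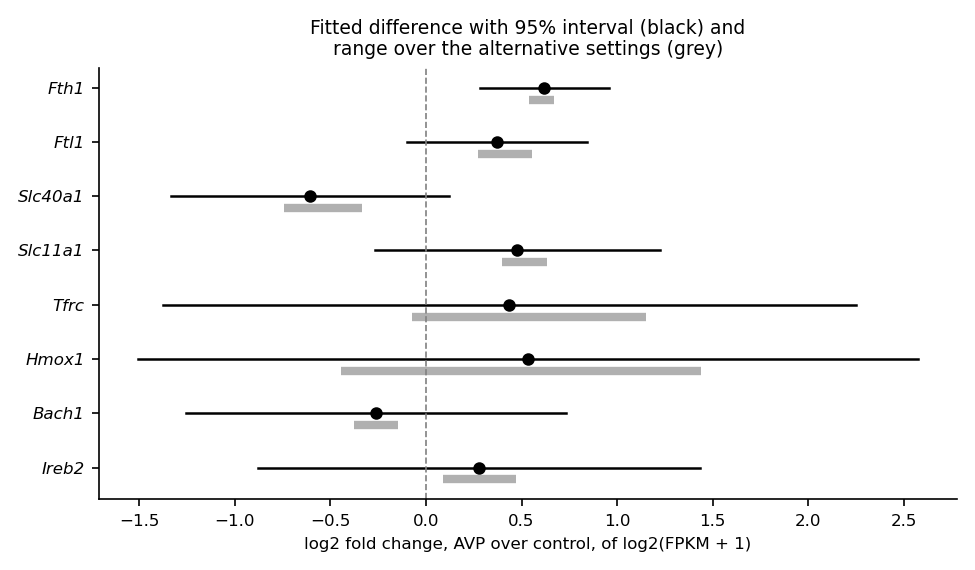
Fitted log2 fold change (AVP over control, of log2(FPKM + 1)) of the 8 tested genes, as points with 95% intervals from limma (black lines). Grey bars span the fold change over the alternative settings, left-out libraries included; they kept to the same side of 0 except for Tfrc and Hmox1.

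BACH1 and its activating counterpart NRF2 bind antioxidant response elements together with small MAF proteins. The letters TGACNNNGC, the core of that element, were searched on both strands of RefSeq promoter windows of GRCm38.p6, from 250 bases before to 50 after the start. They were not found in the windows of the 7 members that had one (Fth1, Ftl1, Slc11a1, Tfrc, Ireb2, Aco1 and Bach1). Over all genes with a window 14.0% held them, and over all 32851 windows 12.4%. With so few members nothing is read from their absence. These windows do not reach distant enhancers.

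The wider pathway was described by 9 lists with 111 genes, of which 107 were found and 68 passed the filter. Of these 68 genes, 0 were called at an adjusted p under 0.05 by limma (0.0% of all genes), their adjusted p running from 0.137 to 0.992. A fitted fold change above 0 was seen in 33 and below 0 in 35, with a median of -0.02. The groups did not overlap in 11 (16.2%), 7 higher and 4 lower, beside 14.0% of all genes tested. Maff, Nfs1 and Mafg, counted here, passed the filter through the group where they were higher, as given below.

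Of the iron and haem scavenging proteins, 2 of 7 genes passed the filter and both were higher in every AVP library than in every control. Lcn2, the granule protein lipocalin 2 that binds bacterial iron carriers, was at 814, 1019 and 812 FPKM after AVP, against 236, 306 and 475 FPKM in controls, a log2 fold change of 1.51 (SE 0.27). Hp, haptoglobin, which captures free haemoglobin, was at 894, 919 and 648 FPKM after AVP, against 493, 439 and 625 FPKM in controls, a log2 fold change of 0.74 (SE 0.23). AVP replicate 3 was only slightly above the highest control for Hp. Ltf, lactoferrin of the secondary granules, was listed at 0.111 FPKM in control replicate 1 and at 0 elsewhere.

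In the list of iron sensing and the hepcidin axis, 7 of 12 genes found were tested, 4 above and 3 below 0, with a median of 0.31. The groups did not overlap for Id1, Hif1a and Zfp36, each higher after AVP. Id1, a target of bone morphogenetic protein signalling, was at 93.1, 34.1 and 36.3 FPKM after AVP, against 7.88, 26.8 and 14.5 FPKM in controls. Hif1a, the oxygen- and iron-sensitive transcription factor subunit, was at 14.0, 21.4 and 19.4 FPKM after AVP, against 12.2, 9.78 and 7.46 FPKM in controls. Zfp36, which encodes tristetraprolin, a factor in mRNA decay, was at 773, 1096 and 771 FPKM after AVP, against 419, 331 and 632 FPKM in controls, a log2 fold change of 1.05 (SE 0.27). Fbxl5, the ubiquitin ligase that marks IRP2 for removal, spread from 53.9 to 129 FPKM after AVP and from 34.4 to 165 FPKM in controls.

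Of the other uptake and export genes, 3 of 13 were tested, and 6 were listed at 0 throughout, among them Tfr2, the second transferrin receptor. Steap4, a metalloreductase that readies iron for transport, was at 0.466, 13.8 and 9.19 FPKM after AVP, against 27.2, 26.3 and 22.5 FPKM in controls, a log2 fold change of -2.07 (SE 0.83). The groups did not overlap, and AVP replicate 1 was far below the other 2 AVP libraries. Among iron chaperones and ferritin turnover (6 of 8 tested, median -0.21, and 0.05 without AVP replicate 2), the groups overlapped for every gene. Pcbp1 and Pcbp2, which deliver iron to ferritin, averaged 46.5 ± 16.6 and 117 ± 18.3 FPKM after AVP and 67.4 ± 26.5 and 108 ± 21.5 FPKM in controls (SD, n = 3 each). Ncoa4, the receptor that sends ferritin to the lysosome, was at 11.1, 10.6 and 0.684 FPKM after AVP, against 4.28, 12.95 and 12.1 FPKM in controls.

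In haem synthesis 8 of 11 genes were tested, 4 above and 4 below 0, with a median of -0.08 that ran from -0.26 to 0.50 with a library left out. Tmem14c, which moves a haem precursor across the inner mitochondrial membrane, was at 48.2, 74.8 and 41.0 FPKM after AVP, against 116, 85.2 and 148 FPKM in controls, and was the only gene of the list whose groups did not overlap. Alas2, the erythroid form of the first enzyme, whose mRNA also holds an iron-responsive element in its 5′ UTR, was at 53.2, 68.2 and 45.7 FPKM after AVP, against 32.1, 44.7 and 64.0 FPKM in controls. In haem transport and breakdown, 7 of 10 were tested and none was apart. The median was -0.35, and 0.16 without AVP replicate 2. Hmox2, the constitutive haem oxygenase, was at 34.7, 42.3 and 27.1 FPKM after AVP, against 38.1, 0 and 14.3 FPKM in controls. Blvrb, a biliverdin reductase, averaged 26.5 ± 12.2 FPKM after AVP and 27.0 ± 18.9 FPKM in controls (SD, n = 3 each).

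Of 21 iron-sulphur cluster genes found, 16 were tested, 6 above and 10 below 0 (median -0.15). Nfs1, the enzyme that supplies sulphur, was at 0, 1.11 and 0.507 FPKM after AVP, against 8.58, 5.44 and 2.22 FPKM in controls, and was the 1 gene whose groups did not overlap. It reached 1 FPKM in every control but after AVP only in replicate 2. Nfs1 thus passed the filter through its controls, and its direction was not independent of the filter. In the BACH1 and NRF2 list, 14 of 17 were tested, 8 above and 6 below 0 (median 0.21). The median was -0.29 without AVP replicate 1 and -0.64 without AVP replicate 2, so its sign turned on single libraries. Slc7a11, the cystine importer that feeds glutathione synthesis, was at 23.6, 43.8 and 27.7 FPKM after AVP, against 10.8, 7.66 and 16.6 FPKM in controls, a log2 fold change of 1.46 (SE 0.44). The small MAF partners were low. Maff was at 4.06, 2.42 and 1.11 FPKM after AVP, against 0, 0.427 and 0 FPKM in controls, and passed the filter through its AVP libraries alone, so its direction was fixed by the filter. Mafk was at 13.7, 1.54 and 0.986 FPKM after AVP, against 1.72, 0.362 and 0.859 FPKM in controls, and overlapped. Mafg was at 1.36, 0.761 and 0.285 FPKM after AVP, against 3.48, 5.17 and 6.43 FPKM in controls. It reached 1 FPKM in every control but after AVP only in replicate 1, so it too passed the filter through its controls. Nfe2l2, which encodes NRF2, was at 70.8, 67.5 and 56.2 FPKM after AVP, against 26.0, 32.4 and 71.3 FPKM in controls, so control replicate 3 overlapped the AVP libraries. Of 5 tested ferroptosis-related genes (median 0.25) none was apart. Gpx4, the lipid peroxide reductase, averaged 341 ± 46.0 FPKM after AVP and 303 ± 47.5 FPKM in controls, and Sat1, a polyamine acetylase, 1140 ± 273 and 1324 ± 149 FPKM (SD, n = 3 each).

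**Figure D4:**
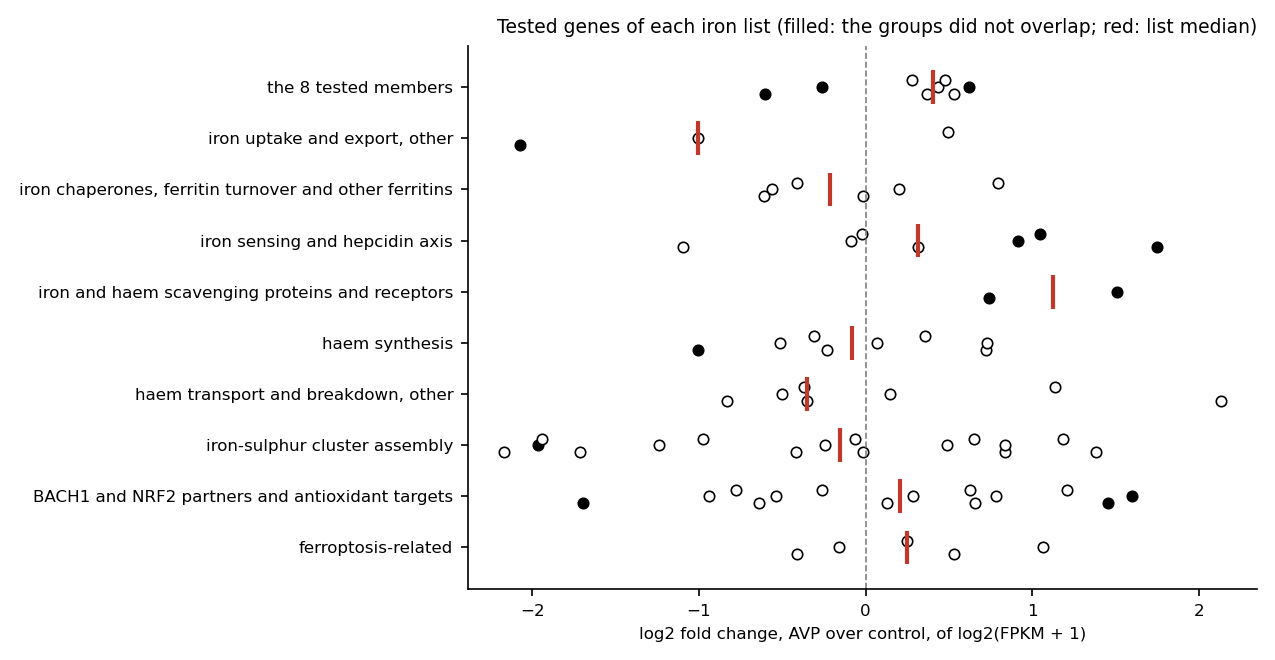
Fitted log2 fold change (AVP over control) of the 8 tested members and of the 68 tested genes of 9 iron lists, 1 row per list. Filled points are genes whose groups did not overlap (3 members and 11 list genes) and red bars are list medians, which ran from -1.01 (uptake and export, 3 genes) to 1.12 (scavenging proteins, 2 genes).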

How the data were processed

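TruSeq libraries were prepared from 1 µg of total RNA and read from both ends over 151 bases, per the labels' protocols. The submitters' processing notes name the mm10 build and, among the tools, DESeq2 2.11.40.6, featureCounts 1.6.4, HISAT2 2.1, cutadapt 1.16.5 and bcl2fastq 2.19, without saying which one made the values; that, and the annotation, is not given in the sources used here. FPKM is the unit inferred for the deposited values, which are not whole and whose totals differ between libraries (755140 to 829725).

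A gene was tested if it reached 1 FPKM in at least 3 libraries (8523 genes). Scaling used the trimmed mean of each library's log ratios to the geometric mean of all 6, with 30% of the ratios and 5% of the levels cut from both ends. Then log2(FPKM + 1) was fitted with limma 3.58.1 in R 4.3.3, with an intensity trend, Benjamini-Hochberg adjustment over all genes and no replicate term. Fold changes on this scale understate those of low genes. Printed FPKM are deposited values unless called scaled. The fit was tested on simulated data with independent noise. The changes added there were larger than those fitted for the members, so changes of their size were not assessed. Fragment numbers multiply FPKM, the length of 1 GENCODE mRNA per gene and the estimated depth, and cover counting error only. Copies were found with BLAST+ 2.17.0, at 90% identity over 50% of the mRNA.

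The members and lists were chosen with earlier results of these data known. Besides the members, up to 3 genes per list whose groups did not overlap were named, by smallest p. Where a list had none, the 2 with the highest mean were named. Ltf, Fbxl5, Ncoa4, Alas2, Nfe2l2, Tfr2, Alad, Mafk and Malt1 were added after their values were seen. Cell markers beyond the 2 with the highest mean of each marker list were also named with their values known.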

Additional observations from a re-analysis of the deposited data

How the results depend on the processing

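No member and no gene of the 9 lists was called under any of the 16 alternatives run. Over all genes, the number higher after AVP was 0 in the fit reported. It was 11 with a filter of 10 FPKM, 3 with a pseudocount of 5, 1 with no intensity trend, and 0 to 4 with a library left out, the 4 being without control replicate 3; 0 were lower throughout. The cause was not tested. Of 126 fold changes of members over the alternatives, 123 kept their sign. The exceptions were Hmox1 without control replicate 3 (-0.45) and Tfrc in 2 settings, down to -0.07 without control replicate 1. Fth1 ranged from 0.54 on the deposited scale to 0.67, and its adjusted p by limma from 0.175 to 0.76. Of 144 list medians, 131 kept their sign. That of the BACH1 and NRF2 list moved to -0.64 without AVP replicate 2. The median of the scavenging list fell from 1.12 to 0.23 with no filter on low values. Leaving haemoglobin, immunoglobulin and mitochondrial genes out of the total moved the mean ferritin share to 2.12% after AVP and 1.61% in controls. Adding the Ftl1 copies moved the mean Fth1 to Ftl1 ratio to 0.826 after AVP, against 0.912, and to 0.692 in controls, against 0.769. With the replicate number as a block, 0 genes were higher and 0 lower. Deviations of same-numbered samples had correlations of 0.0205, -0.0129 and -0.0423, beside -0.0356 to 0.0509 for samples of different number. The labels do not say whether the numbers pair samples. A weak shared effect could be missed by these correlations, so pairing was not settled. Slc11a2 and Aco1 rest mostly on 1 library each, at depths that were close between libraries.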

Other observations

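The search for iron-responsive elements in 5′ UTRs also matched genes outside the iron lists, and their values are given here as a description. Of the 20 genes matched, 11 were tested, Fth1, Ftl1 and Slc40a1 among them. Ftl1-ps1, the near-identical copy of Ftl1, was also among the 11 (log2 fold change 0.37), so these counts may hold the Ftl1 signal more than once. A fitted fold change above 0 was seen in 5 and below 0 in 6, with a median of -0.06 on the log2 scale, beside -0.04 for all genes tested, and 0 were called at an adjusted p under 0.05 by limma. Besides Fth1 and Slc40a1, Malt1, a protease and scaffold of NF-kB signalling, was the only one of the 11 whose groups did not overlap, at 3.90, 4.35 and 6.39 FPKM after AVP, against 11.96, 7.17 and 8.39 FPKM in controls. Over all genes tested the groups did not overlap in 14.0%.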
